A study of Mus musculus with 7 samples.

Results

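The cells were HPC7, a line of mouse hematopoietic progenitors grown in stem cell factor. Bulk ATAC-seq marks open chromatin, because the Tn5 transposase inserts sequencing adapters where DNA is accessible. The 7 libraries (HPC7-1, HPC7-2 and HPC7-4 to HPC7-8) carry the same label, which names neither a genotype nor a treatment, and the study's methods describe separate culture batches. The 7 members studied here were Meis1, Meis2, Meis3, Pknox1, Pbx2, Pbx3 and Pbx4. For each gene, every deposited peak was taken that overlapped the gene body or the 50 kb on either side (mm10, GENCODE M21). Peaks of the 7 libraries that overlapped by at least 1 bp were merged into open chromatin regions (OCRs), and the 7 windows held 227 of the 144931 merged OCRs of the series.

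These genes encode homeodomain transcription factors of the TALE class. Meis and Pknox proteins bind DNA through a core that reads TGACAG, and they form dimers with Pbx proteins, which in turn pair with Hox proteins on composite sites. Meis1 is needed in hematopoietic stem cells and is a partner of Hoxa9 in leukaemia, Pbx3 is often active in the same leukaemias, and Pknox1 is a widely expressed partner of Pbx.

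Sequences at selected OCRs are shown first, because their letters can be set beside the factors named above. The 5 intronic OCRs are given as the 201 bp around the median summit on the plus strand of GRCm38, from the RefSeq genome. They are the strongest and the next strongest gene body OCR of Meis1, the strongest of Pbx3 and of Pknox1, and a weaker one of Pbx3 in which 2 motifs touch. Capitals mark matches on either strand to TGACAG (the core of Meis and Pknox), TGATNNAT (a joint site of Hox and Pbx), AGATAA (the core of GATA factors), TGTGGT (the core of Runx factors) and AGGAAG (the core of ETS factors). The last line is the minus strand immediately upstream of Meis1, 5′ to 3′ (chr11:19018986-19019219), from the RefSeq promoter table, with the same capitals.
Meis1 +48.8 kb, chr11:18970052-18970252: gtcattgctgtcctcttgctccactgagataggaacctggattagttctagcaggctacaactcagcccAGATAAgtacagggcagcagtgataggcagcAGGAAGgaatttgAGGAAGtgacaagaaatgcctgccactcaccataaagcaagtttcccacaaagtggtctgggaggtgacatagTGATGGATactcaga
Meis1 +93.9 kb, chr11:18924981-18925181: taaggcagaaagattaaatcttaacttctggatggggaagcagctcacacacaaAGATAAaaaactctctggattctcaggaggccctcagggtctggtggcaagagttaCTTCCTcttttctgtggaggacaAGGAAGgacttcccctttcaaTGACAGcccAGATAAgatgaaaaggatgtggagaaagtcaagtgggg
Pbx3 +11.8 kb, chr2:34360101-34360301: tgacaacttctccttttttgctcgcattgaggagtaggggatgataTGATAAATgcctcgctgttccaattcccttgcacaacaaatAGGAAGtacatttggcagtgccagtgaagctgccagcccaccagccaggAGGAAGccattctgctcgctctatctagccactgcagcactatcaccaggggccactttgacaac
Pbx3 +69.1 kb, chr2:34302861-34303061: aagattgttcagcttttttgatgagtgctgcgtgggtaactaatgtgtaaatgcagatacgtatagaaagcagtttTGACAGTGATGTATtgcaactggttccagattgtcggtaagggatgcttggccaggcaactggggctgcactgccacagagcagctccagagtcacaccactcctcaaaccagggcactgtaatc
Pknox1 +10.1 kb, chr17:31574778-31574978: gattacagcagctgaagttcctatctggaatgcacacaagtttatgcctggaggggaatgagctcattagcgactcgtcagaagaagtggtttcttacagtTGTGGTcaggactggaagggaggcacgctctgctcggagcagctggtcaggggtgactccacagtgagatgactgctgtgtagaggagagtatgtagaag
Meis1 upstream, minus strand: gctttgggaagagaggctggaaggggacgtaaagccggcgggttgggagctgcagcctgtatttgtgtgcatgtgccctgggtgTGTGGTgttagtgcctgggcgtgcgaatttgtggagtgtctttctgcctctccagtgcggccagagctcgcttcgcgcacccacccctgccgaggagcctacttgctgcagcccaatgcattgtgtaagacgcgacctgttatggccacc

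In the strongest Meis1 element, a GATA match, 2 ETS matches and a Hox and Pbx match lay within the window, without any CpG. The element at +93.9 kb also held no CpG, and it carried 2 GATA matches, 2 ETS matches and 1 match to the Meis and Pknox core. The Meis1 upstream stretch differed in composition, with 12 CpG in 234 bp and a GC content of 60.3%. In the Pbx3 element at +69.1 kb the Meis and Pknox core stood directly beside a Hox and Pbx match. That element was picked for its letters and had a mean fold enrichment of 10.7. Stronger intronic OCRs of Meis1 at +45.0 kb (56.5) and +69.9 kb (46.0) are not shown. The first of these held no match to any of these motifs, and the second held 1 match, to TGACAG. A match to letters is a description and does not show that a factor binds.

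Libraries differed in depth. The lists held between 84593 and 132852 peaks, and the background that the peak caller used, computed from the steps between fold enrichments, lay between 4.44 reads in HPC7-2 and 20.4 reads in HPC7-1. The intensity of a peak is its fold enrichment, the ratio of reads at the summit to this background with 1 read added to both, and the percentile of a peak is the share of all peaks of the same library at or below its fold enrichment. Peak names carry the prefix EtOH in HPC7-5 to HPC7-8 and the prefix VD in the remaining 3 lists. The labels do not explain either prefix, so whether the libraries were treated alike cannot be told from them. All 10 promoters listed as markers of hematopoietic progenitors, among them Kit, Cd34 and Vav1, had a peak in every library. This was so for 60.8% of protein-coding promoters. Of 9 promoters of other lineages, 3 (Myod1, Cdh5 and Col1a1) had a peak in every library, 3 others in some and 3 in none.

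Every member had an OCR within 3 kb of a transcript start in all 7 libraries, which was the case for 60.8% of 21938 protein-coding genes. Every member promoter was also among the top 25% of peaks in all 7 libraries, against 50.4% of protein-coding genes. The mean intensity spanned from 31.2 at Meis2 to 170 at Pknox1, and the median of the mean percentiles was 94.4. Over protein-coding genes with a promoter peak in every library that median was 93.1, and over all protein-coding genes it was 80.9. The Pbx2 value in the median of 94.4 was 98.0, from an OCR with its summit near a start of Notch4, described below. A separate Pbx2 peak, listed in 5 libraries, had a mean percentile of 92.0 there. The members' promoters were thus present throughout, and as a group about as intense as other promoters that were present in every library.

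The promoter OCR of Pknox1 had a fold enrichment between 134 and 198, with a median of 166 (mean 170 ± 26.3, SD, n = 7). The promoter OCR assigned to Pbx2 lay between 99.7 and 180 with a median of 135 (141 ± 28.5). Its summit, however, was −4755 bp from the start of the principal Pbx2 transcript and 467 bp from a start of Notch4, a receptor gene. The merged OCR also lay within 3 kb of a start of Gpsm3. The value of this OCR therefore cannot be read as that of the Pbx2 start alone. A separate peak with its summit within 1 kb of a Pbx2 start was listed in 5 libraries, with fold enrichments from 55.1 to 71.5 (median 67.3, percentiles from 89.7 to 93.1). In HPC7-1 and HPC7-4 a single peak of 7919 and 7443 bp covered a Pbx2 start and had its summit at the upstream position, so no separate value exists there.

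Pbx4 and Meis1 followed. The Pbx4 promoter ranged from 70.7 to 122 with a median of 87.2 (94.1 ± 18.1), and its summit lay 67 bp downstream of the start in the median library. The Meis1 promoter ranged from 59.1 to 111 with a median of 96.6 (88.8 ± 18.0), and its summit lay 18 bp downstream of the start. These ranges overlapped almost completely, and neither promoter was higher in all libraries.

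Meis3, Pbx3 and Meis2 had the lowest promoter intensities when the upstream OCR stood for Pbx2. The separate Pbx2 peak, from 55.1 to 71.5 in 5 libraries, overlapped the ranges of Meis3 and Pbx3. The Meis3 promoter lay between 44.0 and 88.3 with a median of 76.5 (71.2 ± 14.6), and that of Pbx3 between 40.0 and 71.3 with a median of 52.3 (56.7 ± 11.5). The Meis2 promoter lay between 21.9 and 38.2 with a median of 32.0 (31.2 ± 6.02), so that its highest library was below the lowest library of every other member. HPC7-6, the library with the fewest peaks, gave the lowest value at all 7 promoters. Even the weakest of these peaks, Meis2 in HPC7-6, was built from 139 reads at the summit, and the strongest from 4185 reads at Pknox1 in HPC7-1.

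**Figure D1:**
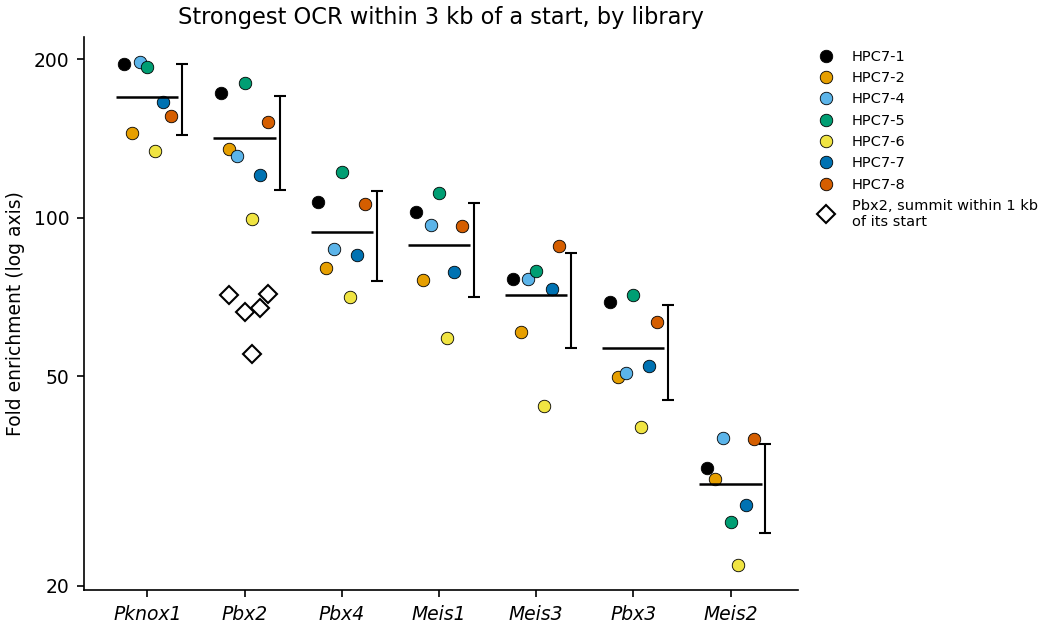
Fold enrichment (log axis) of the strongest OCR within 3 kb of a start of each gene, 1 point per library, with the mean as a line and the SD as a bar beside it (n = 7). Pknox1 lies between 134 and 198 and Meis2 between 21.9 and 38.2, and the open diamonds show the separate Pbx2 peak found in 5 libraries, between 55.1 and 71.5.

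Neighbours in this order were compared within each library by their percentile, with an exact two-sided sign-flip permutation test over the 7 libraries (smallest possible p = 0.0156) and a Benjamini-Hochberg adjustment over 6 pairs. The order was set by mean percentile over the same 7 libraries, so the pairs and their directions came from the tested values. The p-values do not account for this choice. Pknox1 stood 0.922 ± 0.750 percentile points above the OCR assigned to Pbx2, higher in 7 of 7 libraries (exact permutation, adjusted p = 0.0188). With 1 kb promoters the difference was 5.22 points (exact permutation, adjusted p = 0.0234), where HPC7-1 and HPC7-4 still used the wide peak with its upstream summit. Pbx4 and Meis1 differed by 0.576 ± 0.804 points, with Pbx4 higher in 6 of 7 libraries (exact permutation, adjusted p = 0.125), less than the spread between libraries, although without HPC7-4 the difference was 0.821 points (exact permutation, adjusted p = 0.0312). Meis1 exceeded Meis3 by 2.09 ± 1.04 points and Meis3 exceeded Pbx3 by 2.18 ± 1.26 points, both in 7 of 7 libraries (exact permutation, adjusted p = 0.0188 for each). The largest step between neighbours was that from Pbx3 to Meis2, 6.04 ± 2.57 points or 1.81-fold in intensity, again in 7 of 7 libraries (exact permutation, adjusted p = 0.0188).

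The place of Pbx2 in the order rested on the OCR at the upstream position. With that OCR, Pbx2 was 3.01 ± 0.625 points above Pbx4 in 7 of 7 libraries (exact permutation, adjusted p = 0.0188). With promoters taken as 1 kb the mean difference was −1.28 points (exact permutation, adjusted p = 0.328), but HPC7-1 and HPC7-4 kept the wide peak with its upstream summit. In the 5 libraries with a separate Pbx2 peak, its percentiles (89.7 to 93.1) were below the lowest Pbx4 percentile of any library (93.8). The chromosomes also differed, since chromosome 17, 11 and 8 held 1.72, 1.49 and 1.36 times the OCRs per Mb of the median autosome. When percentiles were taken among the peaks of the same chromosome, Meis3 and Pbx3 differed by 0.011 points (exact permutation, adjusted p = 0.984), so their order was not called in that setting, whereas Meis1 minus Meis3 rose to 3.48 points (exact permutation, adjusted p = 0.0234). In that setting Pbx4 minus Meis1 was −0.199 points (exact permutation, adjusted p = 0.656).

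Meis1 was the member with the most gene body OCRs. Its window (gene at chr11:18879817-19018985, minus strand) held 51 merged OCRs, 24 of them shared by the 7 libraries, and 37 of the 51 lay in the gene body outside promoters, 16 of them in all libraries. The strongest OCR of the whole window was not the promoter but an intronic element 48.8 kb downstream of the start (chr11:18969325-18970792, intron 7). Its fold enrichment ranged from 118 to 201 with a median of 172 (169 ± 28.8), which placed it at the 98.9 percentile on average and above 99.8% of the gene body OCRs found in every library. It was higher than the Meis1 promoter in 7 of 7 libraries, on average 1.93 ± 0.215 times, and its summits in the 7 libraries fell within 27 bp. The element was picked because it was the strongest, so this is a description without a test.

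The next intronic OCR of Meis1, 93.9 kb downstream (chr11:18923279-18926016, intron 8), ranged from 61.2 to 105 with a median of 93.1 (89.3 ± 15.5). It lay near the promoter in intensity, above it in 4 of 7 libraries and 1.01 ± 0.0732 times as intense on average. Beside the +48.8 kb element in the same intron, an OCR 45.0 kb downstream (chr11:18973538-18975344) had fold enrichments from 36.0 to 69.3 (median 55.4). A further OCR of intron 7, 69.9 kb downstream (chr11:18948558-18949925), ranged from 29.6 to 56.0 (median 49.9). These 2 were below the promoter in all 7 libraries, at 0.636 ± 0.0445 and 0.519 ± 0.0271 times its intensity.

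Weaker intronic OCRs of Meis1 lay 73.3 kb downstream (18.6 ± 2.89) and 121.5 kb downstream in intron 9 (23.4 ± 1.46). Of the 6 strongest intronic OCRs of Meis1, that at +121.5 kb had the smallest SD between libraries, with values from 21.1 to 25.4 with a median of 23.3. In HPC7-6, where the Meis1 promoter was lowest at 59.1, this element was at 22.5, so its ratio to the promoter differed between libraries (0.273 ± 0.0578). Upstream of Meis1, the only intergenic OCR found in all libraries was at −5.64 kb from the start with a fold enrichment of 9.50 ± 1.60. Just beyond the 3′ end, an OCR of 46.3 in mean intensity overlapped the promoter of the transcript 8430419K02Rik and was therefore not counted in the gene body.

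**Figure D2:**
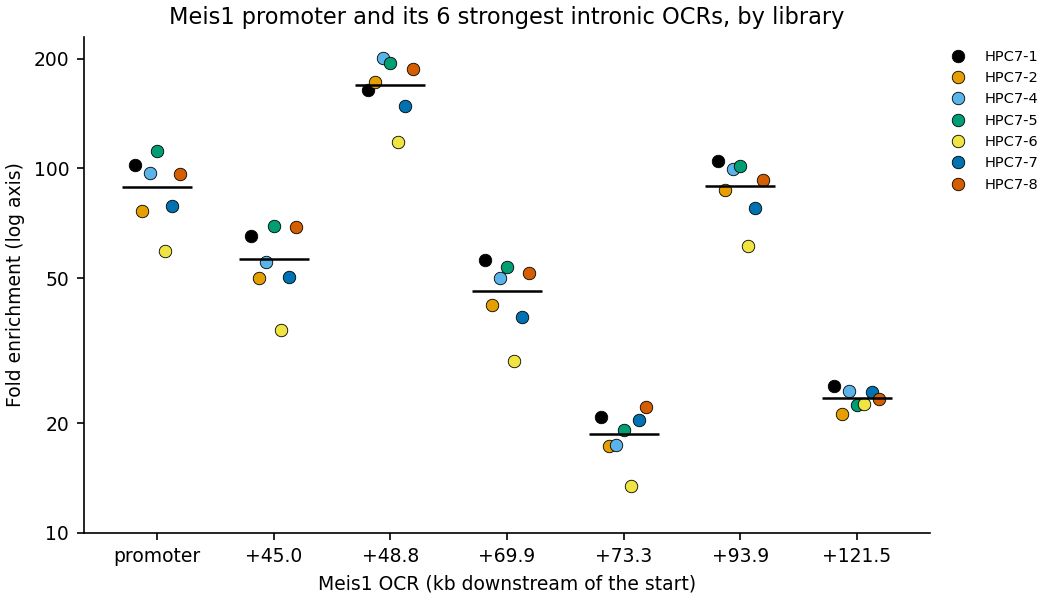
Fold enrichment (log axis) of the Meis1 promoter and of its 6 strongest intronic OCRs found in every library, 1 point per library and the mean as a line (n = 7). The element 48.8 kb downstream lies between 118 and 201, above the promoter in each library, whereas the element at +121.5 kb stays between 21.1 and 25.4.

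Meis2 was the opposite case. The gene (chr2:115863064-116065839, minus strand) is longer than Meis1, yet its window held 7 merged OCRs, and the promoter was the only one with a peak in all 7 libraries. Of 3 OCRs in its gene body, one was found in 6 libraries with a mean fold enrichment of 4.90, one in 2 libraries and one in 1 library. Upstream, an OCR at −6.63 kb from the start was found in 6 libraries (mean 4.10) and one at −36.3 kb in 5 libraries (mean 3.97). Meis2, which acts in the development of heart, limb and nervous system, thus had an open promoter in these cells with little else that was listed around it. The summit of this promoter OCR lay 32 bp from a Meis2 start, but at −760 bp from the start of the principal transcript. The OCR was also within 3 kb of starts of 2700033N17Rik and G630016G05Rik, so its value may not be that of Meis2 alone.

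Meis3 is a short gene (chr7:16175090-16186504, plus strand), all of which lies within 3 kb of a transcript start, so it had no gene body left outside promoters. Its window held 24 OCRs, 13 of them in all libraries, and 3 of these 13 were at Meis3 starts. An intergenic OCR 17.1 kb downstream of the start was present in all libraries with a mean of 18.0 ± 6.73, ranging from 9.74 to 27.1 with a median of 15.7. The strongest OCR of the window, 116 ± 18.9, was at the promoter of Dhx34, an RNA helicase gene 46.7 kb downstream.

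Pknox1 (chr17:31564734-31607693, plus strand) had the most intense promoter of the members, with a median summit at −33 bp from the start and a median width of 3772 bp. Its window held 40 OCRs, 11 of them in all libraries, and 22 of the 40 were at promoters of other genes and 3 in other gene bodies. In intron 1, an OCR 10.1 kb downstream (chr17:31574309-31575282) ranged from 45.5 to 94.5 with a median of 63.9 (67.3 ± 16.8), which was 0.395 ± 0.0703 times the promoter. This element was above 96.6% of gene body OCRs found in every library. Other, lesser OCRs of the same intron, 5.7 and 7.2 kb downstream, had mean fold enrichments of 7.37 ± 1.11 and 7.30 ± 1.08. The strongest OCR of the window was the promoter shared by Ndufv3, a subunit of respiratory complex I, and Wdr4, a tRNA methylation factor (176 ± 31.9).

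Pbx3 (chr2:34171457-34373142, minus strand) spans about the same length as Meis2 on the same chromosome but had more OCRs. Its window held 18, of which 10 were in all libraries, and 6 of these 10 lay in the gene body. The strongest of them, 11.8 kb downstream in intron 2 (chr2:34359403-34360938), ranged from 24.9 to 48.7 with a median of 35.1 (37.1 ± 9.20), and was 0.650 ± 0.0407 times the promoter. Further along the same intron, OCRs at 122.3 kb and 69.1 kb had mean fold enrichments of 20.9 ± 5.77 and 10.7 ± 3.18. Beyond the 3′ end, intergenic OCRs at 232.1 kb and 209.4 kb from the start were weaker, at 11.4 ± 2.55 and 3.73 ± 0.461. The promoter of Mapkap1, a subunit of the mTORC2 kinase complex, was the strongest OCR of the window (95.1 ± 20.8).

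Pbx4 (chr8:69832491-69872292, plus strand), best known for its expression in testis, had the most OCRs in its window, 57. However, 16 of the 57 were at promoters of other genes and 17 in the bodies of other genes. Of all 57, 18 (31.6%) were found in all libraries, against 46.2% of all merged OCRs. Another 18 were found in a single library, 10 of them in HPC7-1, while 17.9% of all merged OCRs were found in 1 library. The gene body of Pbx4 held 3 OCRs present in every library, all weak. They lay 37.4, 28.9 and 12.2 kb downstream, with mean fold enrichments of 6.22 ± 1.41, 5.35 ± 0.939 and 3.73 ± 0.698. The promoters of Pbx4 and Meis1 were 1.06-fold apart, but in contrast to Meis1 none of the shared gene body OCRs of Pbx4 exceeded 0.0669 times its promoter on average. An intergenic OCR 41.8 kb downstream had a mean of 8.04 ± 1.56. The strongest OCR of the window was at the promoters of Ndufa13, Tssk6 and Yjefn3 (138 ± 23.7).

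Pbx2 (chr17:34591266-34597400, plus strand) lies in a gene-dense stretch. Of 30 OCRs in its window, 17 were in all libraries, and 22 of the 30 were at promoters of other genes. Like Meis3 it had no gene body outside promoters. Its intergenic OCRs in all libraries were at −36.6 kb, with a mean of 10.6 ± 2.14, and at 43.6 kb, with a mean of 4.42 ± 1.42. The OCR over Agpat1, a phospholipid synthesis gene, and Rnf5, a ubiquitin ligase gene, reached 261 ± 49.6 and was the strongest OCR in any of the 7 windows.

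**Figure D3:**
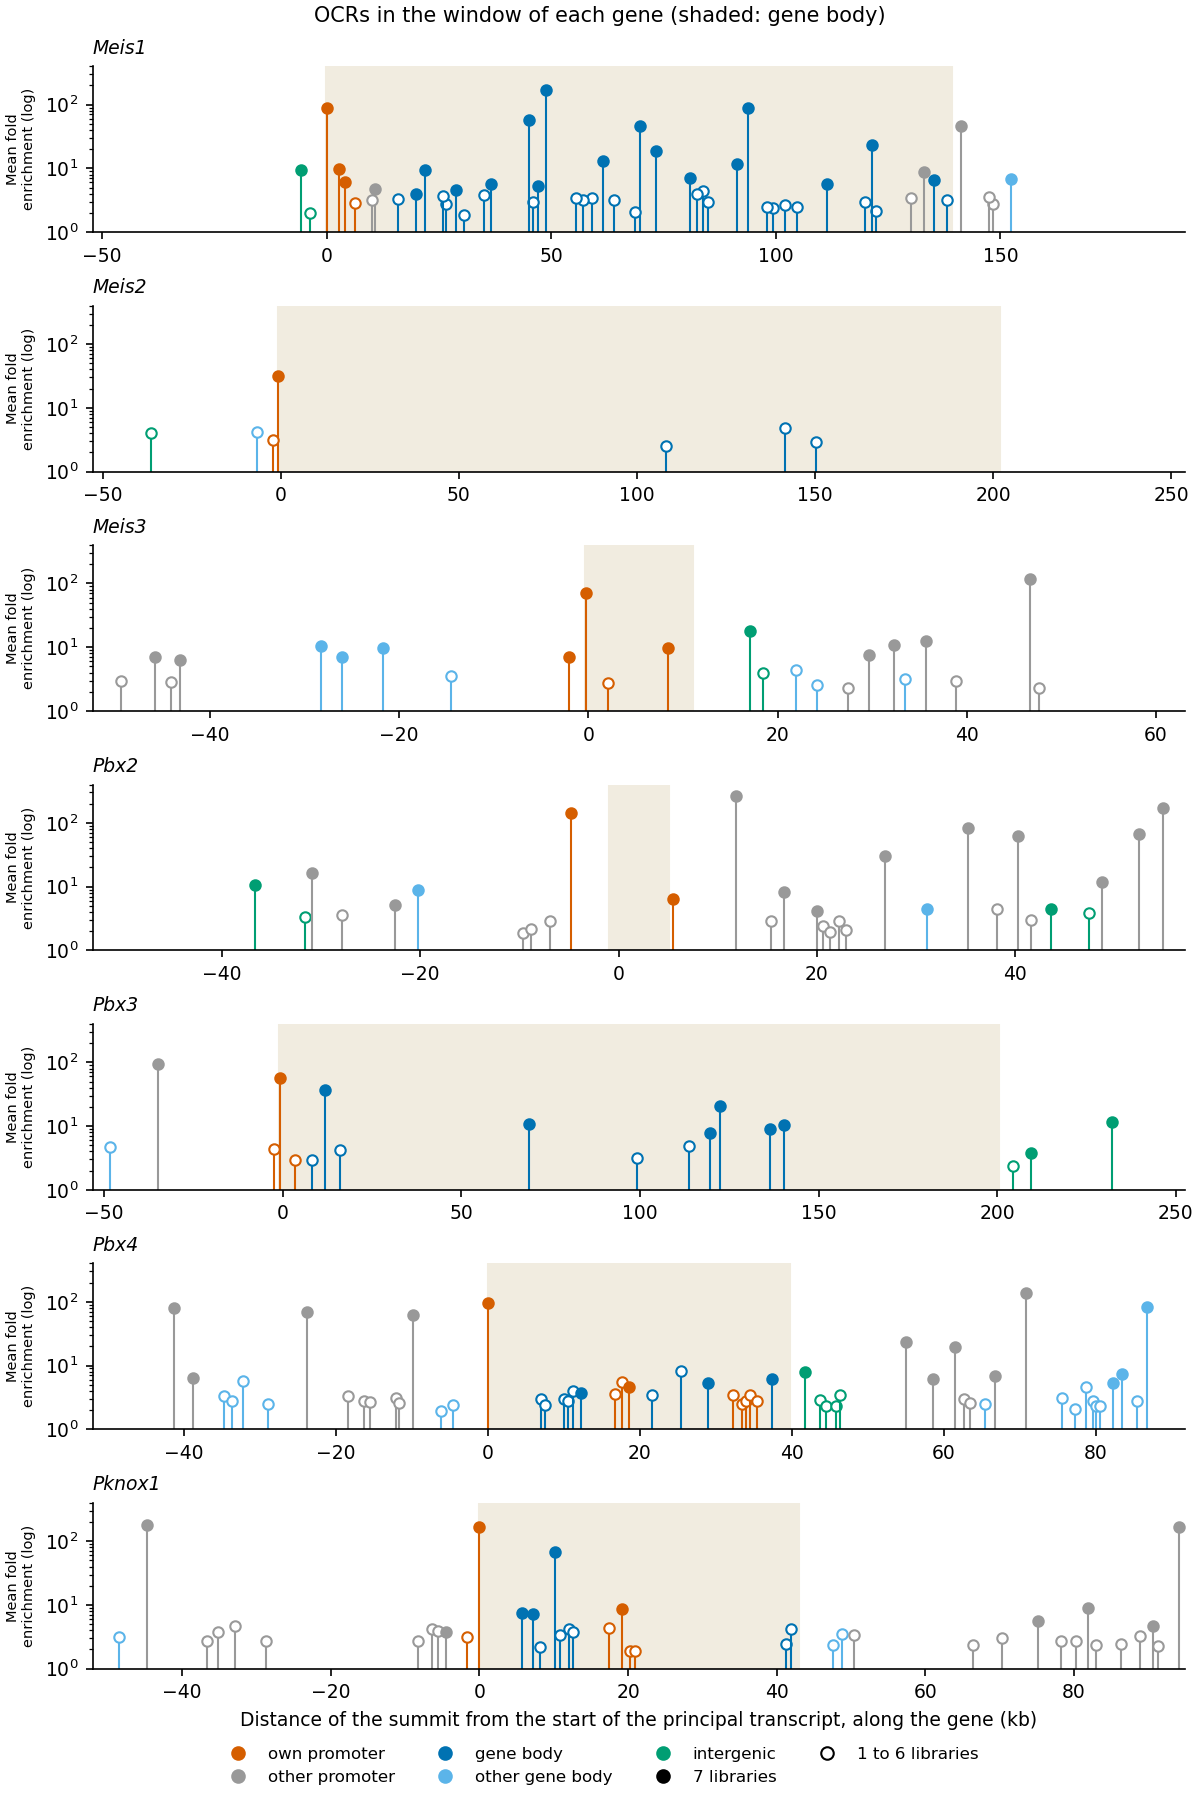
Mean fold enrichment (log axis) of every merged OCR in the 7 windows against the distance of its summit from the start of the principal transcript (kb, along the direction of the gene), coloured by class, with filled points for OCRs in all 7 libraries. Shading marks the gene body: Meis1 has 16 filled gene body points and Meis2 has none, and the own promoter point of Pbx2 lies at −4755 bp from its start.

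The number of gene body peaks outside promoters was set against the length that remained, in peaks per 100 kb. Pknox1 had between 21.1 and 63.2 (median 42.1, mean 42.1 ± 14.0), Pbx4 between 16.4 and 40.9 (median 28.7, mean 27.5 ± 9.95) and Meis1 between 19.0 and 30.3 (median 25.1, mean 24.5 ± 4.62). Pbx3 had between 3.17 and 5.28 (median 3.70, mean 4.08 ± 0.729) and Meis2 between 0 and 1.76 (median 0.588, mean 0.755 ± 0.559). The median over 10275 protein-coding genes with at least 10 kb of gene body outside promoters was 4.12. Pknox1, Pbx4 and Meis1 exceeded 99.8%, 98.3% and 97.2% of these genes, while Pbx3 exceeded 49.7% and Meis2 27.8%. The first 3 genes are on chromosomes 17, 8 and 11, whose higher OCR density is given above, and its part in these values was not tested beyond the division described next.

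Neighbours in density were likewise taken from the order in these same libraries, which the p-values do not account for. Within libraries, Meis1 exceeded Pbx3 by 20.4 ± 4.15 peaks per 100 kb and Pbx3 exceeded Meis2 by 3.32 ± 0.689, both in 7 of 7 libraries (exact sign-flip permutation, adjusted p = 0.0208 over 4 pairs). Divided by the density of the chromosome, the first of these differences was 12.6 (exact permutation, adjusted p = 0.0312). Pknox1 exceeded Pbx4 by 14.6 ± 9.23 in 7 of 7 libraries (exact permutation, adjusted p = 0.0208), but this call was lost when densities were divided by that of the chromosome (4.25, exact permutation, adjusted p = 0.125). With only 1 kb around starts taken as promoters, Pknox1 minus Pbx4 was −5.47 peaks per 100 kb (exact permutation, adjusted p = 0.109). Pbx4 and Meis1 differed by 3.02 ± 6.55, with Pbx4 higher in 4 of 7 libraries (exact permutation, adjusted p = 0.297). The gene bodies of Pknox1 and Pbx4 outside promoters were 14251 and 24426 bp, against 115606 bp for Meis1, so few peaks set their values.

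**Figure D4:**
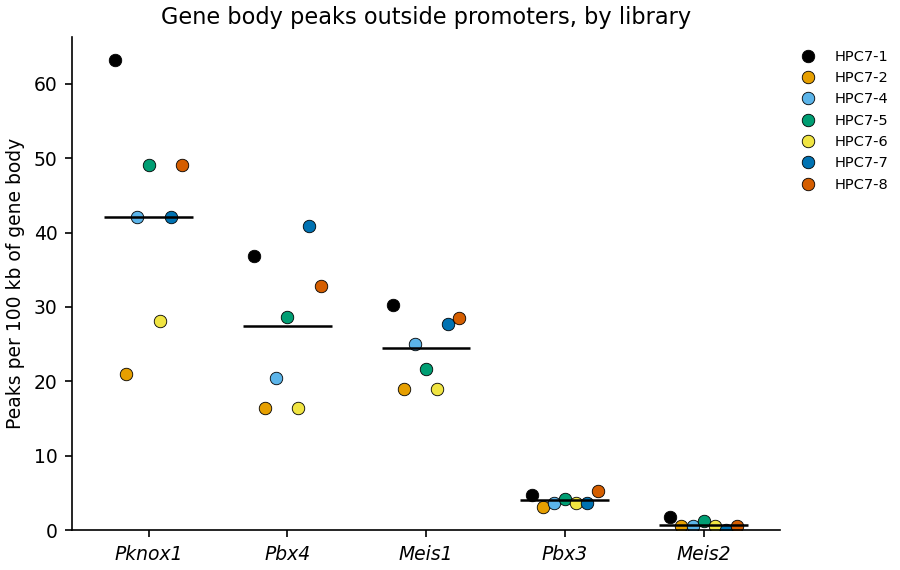
Peaks per 100 kb of gene body outside promoters for the 5 members that have such a stretch, 1 point per library and the mean as a line (n = 7). All 7 libraries place Meis1 (19.0 to 30.3) above Pbx3 (3.17 to 5.28), and Pbx3 above Meis2 (0 to 1.76), while Pbx4 and Meis1 overlap.

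The 7 windows held 227 OCRs, 79 of them at promoters of other genes and 32 in the bodies of other genes. Of all 227, 94 (41.4%) had a peak in all 7 libraries, near the 46.2% of all merged OCRs. By window this share was 56.7% at Pbx2, 55.6% at Pbx3, 54.2% at Meis3 and 47.1% at Meis1. It was 31.6% at Pbx4, 27.5% at Pknox1 and 14.3% at Meis2. At the members' own promoters this was 14 of 30 OCRs, against 54.8% of promoter OCRs of the series. In their gene bodies it was 28 of 69, against 41.4%, and in intergenic stretches 7 of 17, against 42.7%. In none of these classes was the members' share above that of the series. A single library accounted for 51 of the 227 OCRs, compared with 17.9% over the series, and 38 of the 51 (74.5%) were found in HPC7-1, the library with the highest background, against 64.9% of such OCRs in the series. Per library the windows held 163 ± 28.8 peaks in total, from 138 in HPC7-2 to 217 in HPC7-1.

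**Figure D5:**
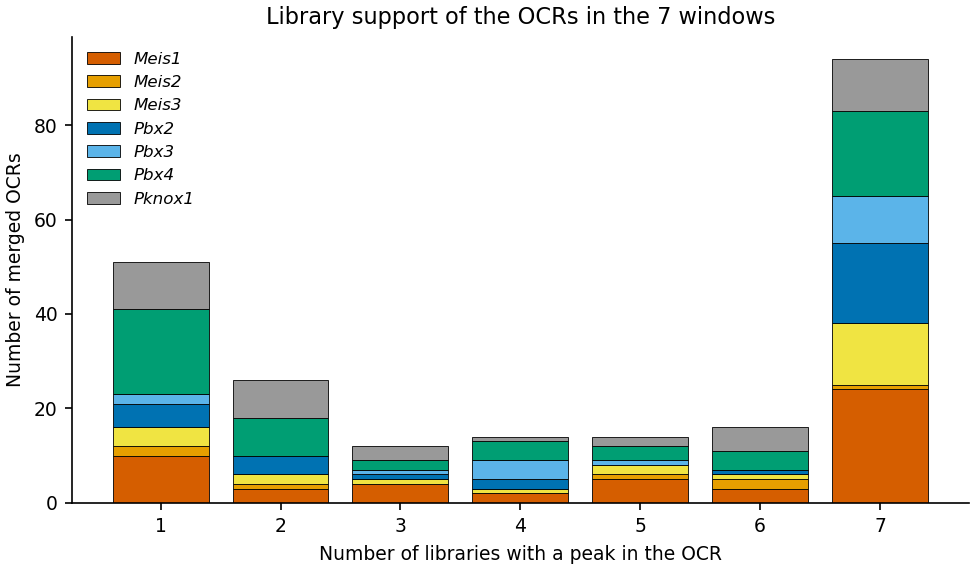
Number of merged OCRs in the 7 windows by how many libraries had a peak there, stacked by gene. The highest bar is that of 7 libraries (94 OCRs, 24 of them in the Meis1 window), followed by 1 library (51 OCRs, 18 of them in the Pbx4 window).

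Of the 28 gene body OCRs found in every library, 7 were in the top 25% of peaks in all 7 libraries, against 18.1% over the series. Meis1 accounted for 5 of these 7 (5 of its 16), Pbx3 for 1 of 6 and Pknox1 for 1 of 3, while Pbx4 had 0 of 3. High intensity gene body OCRs of the members were therefore mostly those of Meis1.

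Taken over all of a member's peaks and not only the strongest, own promoter peaks of the members had a lower median percentile than the promoter peaks of the library, 53.9 ± 3.27 against 61.9 ± 1.32. The difference of −7.98 ± 3.78 points was negative in 7 of 7 libraries (exact sign-flip permutation, adjusted p = 0.0469 over 3 classes), but it was −4.18 without Meis1 (exact permutation, adjusted p = 0.125) and 3.11 with 1 kb promoters (exact permutation, adjusted p = 0.422). Without any 1 library it lay between −8.50 and −6.71, with an exact permutation adjusted p of 0.0938. With 6 libraries the smallest possible p before adjustment is 0.0312, and the adjusted value also depends on the other 2 classes. Secondary starts with weak peaks, such as the 7 own promoter OCRs of Pbx4 that were not in all libraries, enter this median. Gene body peaks of the members stood at 42.6 ± 3.32 against 45.5 ± 0.329 (−2.87 ± 3.03, exact permutation, adjusted p = 0.0938) and intergenic peaks at 38.8 ± 10.5 against 46.5 ± 0.571 (−7.69 ± 10.3, exact permutation, adjusted p = 0.0938). Within the members, own promoter peaks exceeded gene body peaks by 11.3 ± 5.49 percentile points, in 6 of 7 libraries (exact permutation p = 0.0312). The size of this difference depended on the setting, at 43.1 points with 1 kb promoters and 20.2 points with a −log10 q of at least 5 (exact permutation p = 0.0156 for each). On leaving out any 1 library other than HPC7-2 the exact permutation p was 0.0625, with differences between 10.5 and 11.7 points.

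The motifs described above were counted within the 201 bp around the summit of each OCR found in every library, on both strands, where matches of different motifs may share bases. The Meis and Pknox core TGACAG was in 9 of the 28 gene body OCRs of the members (32.1%) and in 22.2% of 24008 such OCRs of the series. The Hox and Pbx letters TGATNNAT were in 7 of 28 (25%), against 8.45%, and TGATTGAC, a joint Pbx and Meis site, was in 0 of 28, against 0.658%. The letters of GATA factors, AGATAA, were in 6 of 28 (21.4%, against 18.3%). Runx (TGTGGT, 25% against 31.6%) and ETS letters (AGGAAG, 39.3% against 45.6%) were not more frequent in the members' gene bodies. Of the 16 such OCRs of Meis1 alone, 5 held AGATAA (31.3%), 4 TGTGGT (25%) and 6 AGGAAG (37.5%). In the same 16, TGACAG was in 5 (31.3%), TGATNNAT in 3 (18.8%) and TGATTGAC in 0. With 28 OCRs from 4 genes these shares are a description only.

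At the members' own promoters the median GC content of the windows was 58.5% with 10.5 CpG, compared with 54.7% and 4 CpG over promoter OCRs of the series. In their gene bodies it was 47.5% with 2 CpG, compared with 49.3% and 2 CpG. Of 14 own promoter OCRs, 4 held TGACAG (28.6%, against 16.2% of promoter OCRs) and 0 held TGATNNAT (against 4.71%). In the RefSeq promoter table, which matched 5 of the 7 members (not Pbx3 and Pknox1), none of the 250-base upstream stretches of these 5 held TGACAG, which 15.9% of 32851 such stretches did. With 5 stretches this is a description only. The Meis2 stretch (chr2:116064620-116064869) lay outside the Meis2 promoter OCR (chr2:116065315-116066762).

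Genes of the same class and Hox partners were compared at their promoters. Of 15 listed, 9 had a promoter OCR in all 7 libraries and 6 in none, with a median percentile of 83.6. Of all protein-coding genes, 60.8% had a promoter OCR in all 7 libraries, and the median percentile over all was 80.9. Among the other TALE factors, the repressors Tgif1 (102 ± 21.8) and Tgif2 (60.1 ± 11.0) and the Iroquois genes Irx5 (168 ± 25.5) and Irx3 (18.6 ± 2.96) had one, and Mkx, Irx1, Irx2 and Irx6 had no peak in any library. Pbxip1, which encodes a protein that binds Pbx, was at 30.0 ± 6.71. Of the Hox genes, Hoxa5 (59.7 ± 11.4), Hoxb8 (52.9 ± 12.3), Hoxb4 (45.4 ± 9.86) and Hoxa7 (32.1 ± 6.48) had a promoter OCR in every library. For Hoxa9 and Hoxa10, the best known partners of Meis1 in blood, no peak within 3 kb of a start was listed in any library. The lists hold only called peaks, so this sets no level for these promoters.

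All 12 promoters of a list of blood transcription factors had a peak in every library, with a median percentile of 92.0. Among protein-coding genes 60.8% had such a peak, and the median percentile of those was 93.1. Those nearest to Meis1 in percentile, library by library, were Tal1 (mean absolute difference 0.656 points over 7 libraries, fold enrichment 88.3 ± 12.8) and Spi1 (0.961 points, 91.3 ± 20.1). The same libraries enter each of these values, and nothing on shared control follows from them.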

How the data were processed

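Peaks from bulk ATAC-seq of HPC7 cells were analysed, with 1 list for each of 7 libraries in 1 group. The authors used Cutadapt for trimming, BWA-mem for alignment to mm10 and MACS2 for peak calling in each library, with versions and options not given in the sources used here. The deposited lists give a fold enrichment (a ratio to the background), −log10 p and −log10 q, a score (the −log10 q on another scale) and the summit offset. The authors applied no normalization between libraries that the sources describe, so genes were compared within libraries. Every fold enrichment was a whole multiple of 1 step per library (100% within 0.05 steps), which gave reads at summits and the background, with 1 read added to both in the ratio. These are counting values of single libraries, and PCR reads are not independent molecules. The SD over the 7 libraries is the error given. The p-values test the mean within-library difference against no difference over the 7 libraries. All of these are of the same cell line, and their labels give only a replicate number.

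Promoters were the 3 kb on either side of any transcript start of GENCODE M21, gene bodies the rest of a gene, and the remainder intergenic. A gene without a promoter peak in a library was set to percentile 0 there. Differences within libraries were tested with an exact two-sided sign-flip permutation test (128 patterns) and adjusted by Benjamini-Hochberg. Distances and intron numbers refer to the principal transcript. For each member the strongest own promoter OCR and, among OCRs in all libraries, up to 3 gene body OCRs (6 for Meis1) and 2 intergenic OCRs were named, and neighbouring genes with a promoter OCR in all libraries. The OCRs of Meis2 found in fewer libraries and the 8430419K02Rik OCR were chosen after their values were seen. The members, lists and motifs were chosen with earlier results of these data known, and 1 gene of the list of other lineages is not reported here.

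Alternatives were windows of 20 and 100 kb, a minimum −log10 q of 5, equal numbers of peaks per library (the most significant), 50% reciprocal overlap, 1 kb promoters, the log2 ratio of intensities, the share in the top 25%, leaving out Meis1 and leaving out each library. Chosen after the data were seen were percentiles and densities relative to the chromosome, summits within 1 kb of a start, and, outside the promoter order, values within each prefix of the peak names. The tools were pysam 0.24.0, scipy 1.17.1, pandas 2.3.3, numpy 2.4.6 and matplotlib 3.10.9 under Python 3.11.15, and the functions were tested on simulated data and against bedtools 2.31.1. Sequences were read from RefSeq GRCm38.p6, whose chromosome lengths were checked against the annotation.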

Additional observations from a re-analysis of the deposited data

Results flagged for a closer look

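The number of peaks in the Meis2 window was 7 in HPC7-1 and between 3 and 4 in the other 6 libraries, a gap to the nearest library that was large for the range of this group. It was 1 of 26 measures of the members compared in this way, of which chance alone marks about 1 in 20. HPC7-1 was also the library with the most peaks and the highest background (20.4 reads), and the part of depth in this count was not tested.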

How the results depend on the processing

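Of 159 alternative tests, 129 left the direction and the side of the threshold as given, 17 lost a call, 6 gained one and 7 turned the direction, and 3 of 23 alternative counts of OCRs moved by over 1.5 times. The number of OCRs in the windows was 149 with equal numbers of peaks per library, and those in all libraries were 60 with 20 kb windows and 56 with 50% reciprocal overlap. In the promoter order, Pbx2 minus Pbx4 was −1.28 percentile points with 1 kb promoters, where HPC7-1 and HPC7-4 keep the wide peak. The difference was −29.3 with summits within 1 kb of a start, where HPC7-1 and HPC7-4 count as 0 by construction. Among peaks of the same chromosome, Pbx4 minus Meis1 was −0.199 and Meis3 minus Pbx3 was 0.011. In peaks per 100 kb, Pknox1 minus Pbx4 was −5.47 with 1 kb promoters and 4.25 relative to the chromosome, and Pbx4 minus Meis1 was −1.05 with equal numbers of peaks. Against the library, promoter peaks were at −3.38 points by the share in the top 25%, 3.11 with 1 kb promoters and −4.18 without Meis1. Gene body peaks were at 1.05 by the share in the top 25% and −4.46 with 1 kb promoters, the latter past the threshold. Intergenic peaks passed the threshold at −11.1 by the share in the top 25%, −8.60 with 1 kb promoters, −10.8 with 100 kb windows and −12.3 without Meis1. Except for the counting of absent peaks as 0, the cause of these changes was not tested. Without each library in turn, Pbx4 minus Meis1 at promoters lay between 0.367 and 0.821, and the call was gained on leaving out HPC7-4 (0.821, exact permutation adjusted p = 0.0312). The promoter class lay between −8.50 and −6.71, with every call lost. There 6 libraries cannot give an exact permutation p under 0.0312 before adjustment, and no call was left after adjustment over the 3 classes. Own promoter minus gene body peaks lay between 10.5 and 13.1, with the call lost in 6 of 7. Within the libraries of either prefix alone, 26 of 28 values, which have no test, kept their direction, and the other 2 were Pbx4 minus Meis1 in the VD libraries, at −0.0055 percentile points and −0.233 peaks per 100 kb. Sizes differed by prefix. Against the library, intergenic peaks stood at −2.35 points in the EtOH libraries and −14.8 in the VD libraries. Gene body peaks stood at −4.31 and −0.951, and promoter peaks at −6.63 and −9.77. No paired analysis was possible because the libraries form 1 group, with no other group whose replicate numbers could be matched, and the differences between genes were taken within each library. Depth limits what the lists can hold, since the weakest listed summit had between 12 and 35 reads depending on the library.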
